A study of Mus musculus with 8 samples.

Results

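The core cardiac transcription factors are the genes Gata4, Gata6, Mef2a, Mef2c, Mef2d, Nkx2-5, Tbx5, Tbx20, Hand2 and Srf, a list of 10 genes taken by symbol from the 22180 genes measured on the arrays. Each gene was read from the probe set that carried only its symbol and had the highest mean over the 8 arrays, and 10 of 10 were found and passed the filter on low signals (15086 genes passed in all). Hearts of male C57Bl6N mice were collected 1 week after transverse aortic constriction (TAC), an operation that narrows the aorta and makes the left ventricle pump against a higher pressure. The 4 knockout hearts (C4KO_TAC) were labelled as a knockout of CITED4, a co-regulator that binds CBP and p300, and the 4 control hearts (F/FCtr_TAC) carried the floxed allele. Every heart had undergone TAC, so no unloaded heart was compared. The Cre driver, the cells in which it acts, whether the controls carried Cre, the age of the mice and how animals or array runs were assigned are not stated in the labels. The p-values therefore measure the spread between these samples, which may be in part technical.

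These proteins bind DNA at the control regions of heart muscle genes and of one another's genes, and they act in combinations. GATA4 and GATA6 are zinc-finger proteins, MEF2A, MEF2C, MEF2D and SRF share the MADS-box DNA-binding domain, NKX2-5 has a homeodomain, TBX5 and TBX20 have T-box domains, and HAND2 is a basic helix-loop-helix protein. In the embryo they build the heart chambers. In the adult heart they keep the muscle gene programme running, and GATA4, the MEF2 proteins and SRF are targets of the signals set off by pressure load, acting largely through phosphorylation, partner proteins and localisation rather than through the amount of their own transcript.

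Stretches of 3 promoters are shown because they hold letter matches to the binding motifs of the factors themselves, Srf for SRF, Mef2a for the MEF2 proteins and Hand2 for the GATA proteins. The sequences are from RefSeq, build GRCm38.p6, in lower case with the matches in capitals, 5′ to 3′ along the gene. The Srf stretch is chr17:46556163-46556312 on the minus strand, from -150 to -1 of the start site, and its capitals are 2 CArG boxes, the SRF motif, which begin at -82 and -62. That of Mef2a is chr7:67372829-67372978 on the minus strand, from -120 to 30, with a MEF2 site from -2. The Hand2 stretch is chr8:57320733-57320882 on the plus strand, from -250 to -101, with GATA matches from -215 and, on the other strand, from -172.
Srf: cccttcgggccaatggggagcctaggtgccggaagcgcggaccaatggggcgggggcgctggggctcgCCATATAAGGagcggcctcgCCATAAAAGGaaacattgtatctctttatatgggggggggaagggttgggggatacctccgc
Mef2a: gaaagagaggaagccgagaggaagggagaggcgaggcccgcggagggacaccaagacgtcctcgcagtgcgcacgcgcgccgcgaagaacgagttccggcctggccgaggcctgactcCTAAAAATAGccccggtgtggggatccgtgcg
Hand2: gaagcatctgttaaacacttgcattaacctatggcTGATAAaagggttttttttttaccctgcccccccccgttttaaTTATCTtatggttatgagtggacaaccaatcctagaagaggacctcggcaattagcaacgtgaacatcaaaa

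RefSeq promoter windows were matched for 7 of the 10 genes (9 windows of 250 bases before to 50 after a start, 3 of them of Mef2c), and not for Gata4, Gata6 and Tbx5. On either strand, the CArG box was found in 1 of the 9 windows (Srf) and in 1.63% of 32851 windows of all genes, the MEF2 site in 1 (Mef2a) and 3.19%, and the GATA motif, AGATAA or TGATAA, in 1 (Hand2) and 18.6%. The T-box core AGGTGT was found in 1 window, of Mef2c, and in 13.7% of all. The NKX2-5 core AAGTG was in 5 windows and 46.4% of all, and the E-box CANNTG in 4 and 72.3%. An NKX2-5 core and an E-box overlapped in Hand2 (from -235) and in Mef2c (from -234 and -233). These are letter matches and do not show binding.

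None of the 10 factors differed between the genotypes beyond the spread of the arrays. In limma's fit over all 15086 genes with Benjamini-Hochberg adjustment, 0 of 10 rose and 0 of 10 fell at an adjusted p of 0.05, where 0% of all genes were called in either direction. At an unadjusted p under 0.05 the count was again 0 of 10, against 11.2% of all genes tested (1697 genes). The knockout values overlapped the control values for 10 of 10 factors, and did not overlap for 5.23% of all genes. Of the factors 4 had a higher and 6 a lower knockout mean, with a median difference of -0.05 (log2, knockout minus control), beside 0.0038 for all genes. The differences ran from -0.15 (Mef2a) to 0.10 (Hand2), and 31.4% of all genes had a difference larger in size than that of Mef2a. The targeted gene Cited4 had a control signal of 5.98 ± 0.20 and a knockout signal of 5.07 ± 0.19 (log2, mean ± SD, n = 4), 53.1% of control with no overlap, and with an adjusted p of 0.277 in the same limma fit it was not called either. Whether its probes lie in the deleted part is not known here.

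Array medians lay between 4.29 and 4.33 (log2) and correlations between arrays between 0.979 and 0.988. Knockout replicates 1 and 4 and knockout replicate 2 stood apart from the other arrays in markers of cell types. The mean log2 signal of 13 ventricular cardiomyocyte markers was 11.3 in knockout replicates 1 and 4 and between 11.5 and 11.6 in the other 6 arrays. That of 12 fibroblast markers ran from 8.89 to 9.50 in control hearts and was 9.71 and 9.66 in knockout replicates 1 and 4. Among the controls replicate 1 stood apart here, at 9.50, and the other controls ran from 8.89 to 9.15. Knockout replicates 2 and 3 were at 9.46 and 9.13. In knockout replicate 2 the mean of 8 atrial markers was 7.42, against 5.69 to 6.13 in the other 7 arrays, with 7 of these markers above the filter. In whole hearts, fewer cells of a type and less RNA per cell cannot be told apart. Many results below are also given without some of these arrays, but not every result that may rest on knockout replicates 1, 2 or 4.

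Gata4, a zinc-finger activator of natriuretic peptide and contractile genes, was nearly constant in the control hearts. Its signals were 7.52, 7.53, 7.57 and 7.52 (log2 intensity) in control replicates 1 to 4 and 7.72, 7.53, 7.50 and 7.56 in knockout replicates 1 to 4. Knockout replicate 1 was above every other array, knockout replicate 3 lay just below the controls and the remaining 2 lay among them. The difference was 0.04 ± 0.07 (SE; 95% interval -0.12 to 0.21), with an adjusted p of 0.844 by limma. Without knockout replicate 1 it was -0.0030.

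Gata6, which overlaps with Gata4 in function and is also expressed in vascular smooth muscle, was at 8.28, 8.24, 8.28 and 8.27 in the control hearts, a range of 0.04. Knockout signals were 8.18, 8.34, 8.23 and 8.07, a range of 0.27 with knockout replicate 2 the highest and knockout replicate 4 the lowest of all arrays. The difference was -0.06 ± 0.08 (95% interval -0.23 to 0.11; limma adjusted p = 0.778). It was -0.11 without knockout replicate 2 and 0.019 without knockout replicates 1 and 4.

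Mef2a encodes the MEF2 protein linked to mitochondrial and contractile upkeep in the adult ventricle. Control signals were 10.38, 10.32, 10.24 and 10.36, and knockout signals 10.03, 10.36, 10.20 and 10.09. Knockout replicates 1, 3 and 4 lay below every control, while knockout replicate 2 lay within the control range. The difference, -0.15 ± 0.09, was the largest in size of the 10 (95% interval -0.35 to 0.05; limma adjusted p = 0.526; exact two-sided permutation p = 0.143). The knockout signal was 90.1% of the control signal on the linear scale, with an interval from 78.7% to 103%. The log2 difference was -0.04 without knockout replicates 1 and 4, and -0.21 without knockout replicate 2.

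Mef2d, the MEF2 gene tied to load-induced remodelling of the mouse heart, had control signals of 8.48, 8.70, 8.64 and 8.63 and knockout signals of 8.51, 8.52, 8.44 and 8.47. The knockout arrays were close together (SD 0.04, n = 4) and below control replicates 2, 3 and 4, and control replicate 1 lay among them. The difference of -0.13 ± 0.07 had an adjusted p of 0.519 by limma and an exact two-sided permutation p of 0.0857, where 4 against 4 arrays allow no value below 0.0286. Leaving out control replicate 1 gave -0.18 (limma adjusted p = 0.339).

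Mef2c, needed for the formation of the right ventricle and also expressed outside muscle, had control signals of 7.96, 8.07, 8.03 and 7.81 and knockout signals of 7.88, 8.08, 8.06 and 7.93. The groups covered nearly the same range. The difference was 0.02 ± 0.09, with an interval from -0.17 to 0.21 (limma adjusted p = 0.945). A further probe set of Mef2c, with a lower signal, had control signals of 6.26, 5.83, 5.74 and 5.51 and knockout signals of 5.75, 6.20, 6.32 and 5.77. Its difference was 0.18 ± 0.18 (limma adjusted p = 0.72). The probe sets order the control hearts differently, with control replicate 1 the highest control only in the second.

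Srf encodes the MADS-box factor that binds CArG boxes in muscle and growth-response genes. Its control signals were 8.10, 8.28, 8.36 and 8.15 and its knockout signals 8.12, 7.95, 8.14 and 8.19. The lowest array was knockout replicate 2 and the highest control replicate 3, and 3 of the 4 knockout arrays lay within the control range. The difference was -0.12 ± 0.09 (95% interval -0.32 to 0.07; limma adjusted p = 0.599). It was -0.07 without knockout replicate 2 and -0.18 without knockout replicates 1 and 4.

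**Figure D1:**
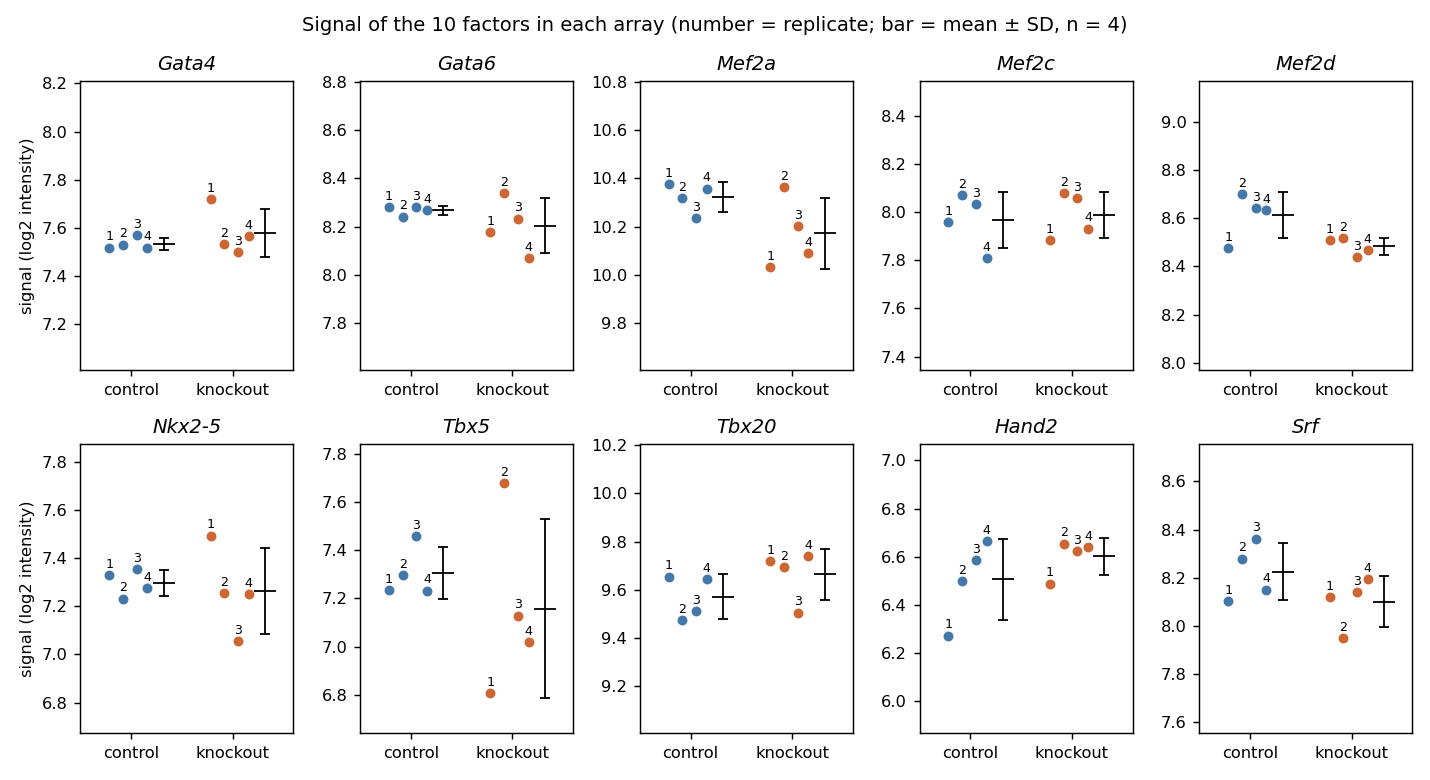
Signal of each of the 10 factors (log2 intensity) in the control and knockout arrays, with points numbered by replicate and bars for mean ± SD (n = 4 per group); every panel spans 1.2 log2 units. The groups overlap in each panel, and the knockout arrays of Tbx5 run from 6.81 to 7.68.

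Nkx2-5, the homeobox gene of the early heart field and of the adult conduction system, was at 7.33, 7.23, 7.35 and 7.28 in the control hearts. The knockout hearts held both the highest and the lowest array, with 7.49, 7.25, 7.06 and 7.25 in replicates 1 to 4. The difference was -0.03 ± 0.10 (95% interval -0.25 to 0.18; limma adjusted p = 0.909). Leaving out knockout replicate 3 gave 0.03, and leaving out knockout replicate 1 gave -0.11.

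Tbx5, a T-box gene with roles in the atria, the septum and the conduction system, varied most of the 10. Control signals were 7.23, 7.30, 7.46 and 7.23, and knockout signals 6.81, 7.68, 7.13 and 7.02. Knockout replicate 2 was the highest of all arrays and the other 3 knockout arrays were the lowest of all. The knockout SD was 0.37 against 0.11 in control hearts (n = 4 each), and the difference was -0.15 ± 0.16 (95% interval -0.51 to 0.21; limma adjusted p = 0.745). Knockout replicate 2 was also the array with the high atrial markers, and the part of atrial tissue in its Tbx5 signal was not tested. Without that array the difference was -0.32 ± 0.10, with an unadjusted p of 0.0119 and an adjusted p of 0.225 by limma. Without knockout replicates 1 and 4 it turned to 0.10.

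Without knockout replicate 2, Tbx5, Gata6 and Mef2a had no knockout array within the control range, 3 of 10 factors lower with no overlap, where 7.92% of all genes were. That array was the only knockout array of these 3 genes not below the controls, so the lack of overlap follows from leaving it out. Leaving out control replicate 1 likewise left Mef2d lower with no overlap (1 of 10, 6.72% of all genes), and leaving out knockout replicate 3 left Tbx20 higher with no overlap (1 of 10, 5.39%). At an unadjusted p under 0.05 and without knockout replicate 2, 2 of 10 were lower, Tbx5 and Mef2a (-0.21 ± 0.08), where 8.8% of all genes were. Knockout replicate 2 was the highest knockout array of both genes, so leaving it out must lower their differences. Mef2a had an adjusted p of 0.263 there, so no factor passed limma's test in that fit either.

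Tbx20, a T-box gene that keeps adult cardiomyocytes working and is also expressed in valve and endocardial cells, was the factor with the most knockout arrays above the controls. Control signals were 9.66, 9.47, 9.51 and 9.65, and knockout signals 9.72, 9.69, 9.51 and 9.74. Knockout replicates 1, 2 and 4 exceeded every control, while knockout replicate 3 lay at the level of control replicate 3. The difference was 0.09 ± 0.08 (95% interval -0.09 to 0.28; limma adjusted p = 0.682; exact two-sided permutation p = 0.2). It was 0.15 without knockout replicate 3 and 0.03 without knockout replicates 1 and 4.

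Hand2, which drives growth of the right ventricle in the embryo, had control signals of 6.27, 6.50, 6.59 and 6.67 and knockout signals of 6.49, 6.66, 6.62 and 6.64. All knockout arrays lay within the control range, which control replicate 1 widened at its low end. The difference of 0.10 ± 0.10 (95% interval -0.12 to 0.31; limma adjusted p = 0.717) fell to 0.02 without control replicate 1.

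**Figure D2:**
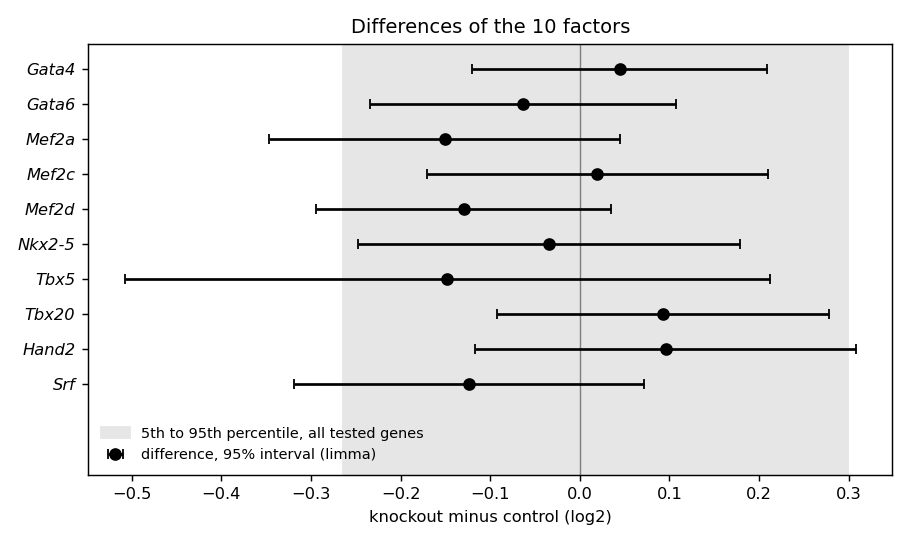
Knockout minus control difference (log2) of each factor with limma's 95% interval, over a grey band from the 5th to the 95th percentile of the differences of all 15086 genes (-0.26 to 0.30). The 10 points lie inside the band and each interval crosses 0.

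The intervals give the precision of the differences in array signal under limma's moderated variances, over all 8 arrays. On the linear scale the lowest bound was 70.3% of the control signal for Tbx5, and for the other 9 factors no bound lay below 78.7% (Mef2a). The highest bound was 124% (Hand2). These are intervals for single genes, not adjusted over the 10. The SE of Tbx5 was 0.19 in the unmoderated test, beside 0.16 in limma's, which would widen its interval. The factors varied little between hearts of a group, with a median residual SD of 0.11 (log2), beside 0.15 for all genes. The residual SD of Tbx5, 0.27, was at or above that of 90.1% of genes, and those of the other 9 factors were at or above 7.75% to 40.8% of genes. The knockout SD exceeded the control SD for 6 of 10 factors (Gata4, Gata6, Mef2a, Nkx2-5, Tbx5 and Tbx20), near the 61.3% of all genes.

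The knockout hearts did not all deviate alike. Of the 10 factors 7, 4, 8 and 7 lay below the control mean in knockout replicates 1 to 4. In control replicates 1 to 4 these counts were 6, 7, 2 and 6. Mef2d and Srf lay below it in all 4 knockout arrays, by -0.17 to -0.09 and -0.27 to -0.03. Knockout replicate 3 was the lowest array for 3 factors. Knockout replicates 1 and 4 were the lowest pair of the 8 arrays for Gata6, Mef2a and Tbx5 (3 of 10 factors, 12.9% of all genes) and the highest pair for Tbx20 (1 of 10, 11.3%). The same pair had the lowest ventricular and the highest fibroblast and smooth muscle or pericyte markers, the last at 8.20 and 8.19 against 7.63 to 8.03 in control hearts, and the part of cell content in these signals was not tested. Knockout replicate 2 was the highest array for Gata6, Mef2c and Tbx5 (3 of 10, 13.2% of all genes). Its endothelial markers, at 8.57, were also the highest, against 8.33 to 8.45 in control hearts.

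**Figure D3:**
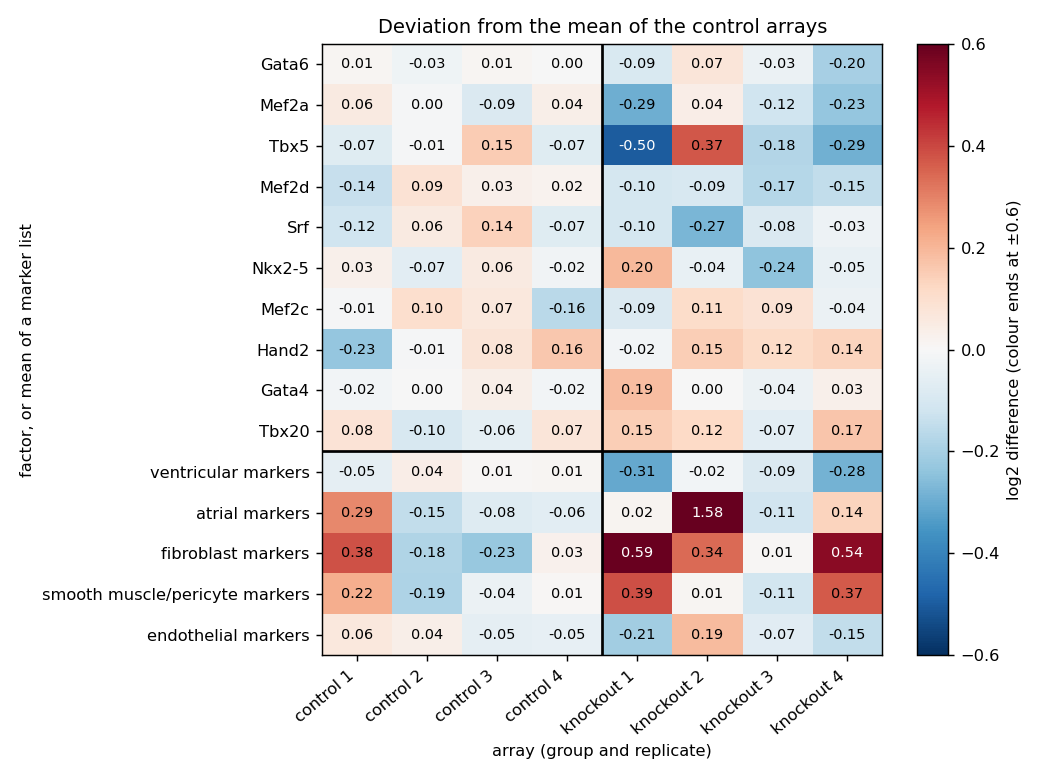
Deviation of each factor (upper 10 rows) and of the mean of each marker list (lower 5 rows) from the mean of the control arrays, by array (log2; colour ends at 0.6 in size, and numbers give the values). Knockout replicates 1 and 4 are low in Gata6, Mef2a, Tbx5 and ventricular markers, and knockout replicate 2 is high in Tbx5 and atrial markers.

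Protein partners and co-regulators of the factors did not pass either. Of 32 listed genes 30 were tested, 16 higher and 14 lower with a median of 0.01, and 0 had an unadjusted p under 0.05 (5.64% of all genes higher, 5.61% lower). The smallest p-values were those of Fhl1, Fhl2, Nfatc4 and Prdm16. Fhl1 and Fhl2, which encode LIM-domain proteins, differed by 0.30 ± 0.16 and -0.23 ± 0.12. Nfatc4, the calcineurin-regulated partner of GATA4, differed by 0.20 ± 0.11, and Prdm16, a chromatin regulator, by -0.17 ± 0.10. Their differences without knockout replicates 1 and 4 were, in that order, 0.05, -0.0032, 0.07 and -0.0052. Without overlap, 1 of 30 was higher, Csrp3 at 0.10 ± 0.07, and 1 of 30 lower, Crebbp, which encodes the CITED4 partner CBP, at -0.09 ± 0.07, beside 2.33% and 2.9% of all genes. These 2 genes were picked out after their values were seen. The SRF co-activator gene Myocd, with a control mean of 8.91 ± 0.07 and a knockout mean of 8.82 ± 0.20 (SD, n = 4), and the GATA4 partner gene Zfpm2, with means of 6.99 ± 0.16 and 6.99 ± 0.19, were also named after their values were seen.

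Among other factors of heart formation and chamber identity, 26 of 32 listed genes were tested, 15 higher and 11 lower (median 0.02), with 0 past limma's adjusted threshold. Foxc2, a forkhead gene of vessels and outflow tract, had control signals of 5.35, 5.20, 5.20 and 5.25 and knockout signals of 5.77, 5.38, 5.51 and 5.61. Its groups did not overlap, and the difference of 0.31 ± 0.09 had an adjusted p of 0.421 by limma. Without overlap, 1 of the 26 genes was higher and 1 lower, beside 2.33% and 2.9% of all genes. Heyl, a Notch target, differed by 0.22 ± 0.09, Tbx18, a gene of the epicardium and sinus node, by 0.29 ± 0.14 and Sall4 by -0.41 ± 0.18. Foxc2 and Heyl (2 genes higher) and Sall4 (1 lower) had an unadjusted p under 0.05. These counts of 26 are near the shares of all genes, 5.64% higher and 5.61% lower. With 1 array left out there were 1 to 4 higher, where 3.37% to 8.12% of all genes were, and 0 to 3 lower, where 3.17% to 8.8% were. Without knockout replicates 1 and 4 there were 0 of either, beside 2.19% and 1.9%. The differences were then 0.19 for Foxc2, 0.12 for Heyl, 0.29 for Tbx18 and -0.19 for Sall4.

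Genes described as direct targets of the factors in cardiomyocytes were mixed. Of 37 tested, 15 were higher and 22 lower (median -0.04), with 3 higher and 7 lower at an unadjusted p under 0.05, beside 5.64% and 5.61% of all genes. Ppargc1a, which encodes a co-activator of mitochondrial genes, differed by -0.61 ± 0.21, and the myosin genes Myh6 and Myl2 by -0.35 ± 0.13 and -0.36 ± 0.13. Smpx, which encodes a small stretch-related muscle protein, differed by 0.35 ± 0.12. With knockout replicates 1 and 4 left out, Ppargc1a was -0.29, Myh6 -0.12, Myl2 -0.11 and Smpx 0.16. The count of 7 lower was 2 without control replicate 2, 3 without control replicate 3, 4 without control replicate 4, 1 without knockout replicate 1 or 4, and 0 without both of the last. The share of all genes that were lower fell as well, to 3.49%, 3.75% and 3.83% without those controls, to 3.17% and 3.39% without knockout replicate 1 or 4, and to 1.9% without both. In the other fits the count was 7 without control replicate 1, and 8 without knockout replicate 2 or 3. There 6.16%, 8.8% and 6.66% of all genes were lower. Of the 13 ventricular cardiomyocyte markers 11 are in this target list, Myh6 and Myl2 among them, so most of the marker list is not a separate measurement. The other 26 targets had 13 higher and 13 lower, a median of 0.0069, and 3 higher and 3 lower at an unadjusted p under 0.05.

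Genes with described control by SRF through CArG boxes, such as those in the Srf promoter shown above, mostly had higher knockout means, while Srf did not. The shift was largest in knockout replicates 1 and 4, as given below. Among 34 tested genes, Srf included, 22 had higher and 12 had lower knockout means (median 0.20), and 0 passed limma's adjusted threshold. At an unadjusted p under 0.05, 10 of 34 were higher and 1 lower, where 5.64% and 5.61% of all genes were. Acta1, the skeletal alpha-actin gene, had control signals of 8.96, 8.89, 8.56 and 9.10 and knockout signals of 9.46, 9.14, 9.17 and 9.72, without overlap, a difference of 0.49 ± 0.15. The growth-response genes Egr2 and Egr3 differed by 0.63 ± 0.20 and 0.28 ± 0.09, and Lmod1, which encodes the smooth muscle leiomodin, by 0.30 ± 0.10. Each of these had an adjusted p of 0.421 by limma. With knockout replicates 1 and 4 left out, Acta1 was 0.27, Egr2 0.26, Egr3 0.18 and Lmod1 0.18. In the whole list 2 of 34 genes were higher and 1 lower without overlap, beside 2.33% and 2.9% of all genes. The lower gene in both counts was Nexn, at -0.22 ± 0.09.

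The shift of the SRF target list differed in size between the knockout hearts. Of its 34 genes 22, 21, 18 and 25 lay above the control mean in knockout replicates 1 to 4. The median deviation of its genes from the control mean was 0.35 in knockout replicate 1 and 0.24 in knockout replicate 4, but 0.07 and 0.04 in knockout replicates 2 and 3, and from -0.06 to 0.09 in the control arrays. Without knockout replicates 1 and 4 the median difference was 0.0050, with 18 genes higher, 16 lower and 0 at an unadjusted p under 0.05, as removing the arrays with the highest values must lower it. It was 0.13 without knockout replicate 1 alone, and the count of 10 was 4 without knockout replicate 1, 6 without knockout replicate 4 or control replicate 2, 14 without control replicate 1 and 15 without knockout replicate 3. The share of all genes that were higher moved the same way, to 3.37%, 3.62%, 3.51%, 8.12% and 7.72% in that order, from 5.64%. Knockout replicates 1 and 4 were the arrays with the highest smooth muscle or pericyte and fibroblast markers. Of the 34 genes 4 are in those marker lists, and the other 30 had a median of 0.14 with 19 higher. This split sets aside only the listed markers, so the other 30 may still hold genes of those cells. The part of these cells in the shift was not tested.

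**Figure D4:**
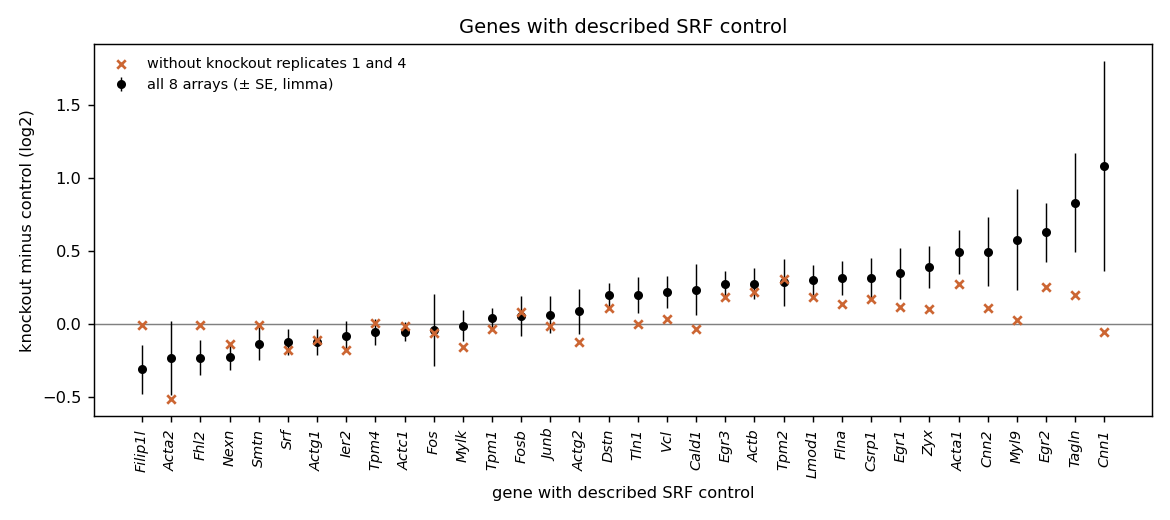
Knockout minus control difference (log2) of the 34 genes with described SRF control, over all 8 arrays (points ± limma's SE) and without knockout replicates 1 and 4 (crosses). The crosses lie nearer to 0 than the points for 26 of the 34 genes.

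Kinases, phosphatases and signals that act on the factors were tested for 16 of 22 listed genes, with 5 higher and 11 lower (median -0.07) and 0 past limma's adjusted threshold. Bmp4, a growth factor gene upstream of Gata4 and Nkx2-5 in the embryo, differed by 0.33 ± 0.12. Prkd1, whose kinase phosphorylates class II histone deacetylases and so releases MEF2, had control signals of 5.64, 5.52, 5.49 and 5.53 and knockout signals of 5.26, 5.39, 5.33 and 5.43. The knockout arrays of Prkd1 were all below the controls, a difference of -0.19 ± 0.07 (limma adjusted p = 0.421). Without overlap, 0 of the 16 genes were higher and 1 lower, beside 2.33% and 2.9% of all genes. Map2k5, in the kinase cascade to MEF2 factors, differed by -0.24 ± 0.11 and Camk2d, the main CaMKII gene of the heart, by -0.13 ± 0.08. With knockout replicates 1 and 4 left out, Bmp4 was 0.28, Prkd1 -0.19, Map2k5 -0.17 and Camk2d -0.03.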

How the data were processed

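RNA from whole hearts was hybridised to Affymetrix arrays, 1 array per heart (8 in all), per the labels. The authors deposited a table of log2 intensities for 41345 probe sets. The submitters' processing notes name RMA (background correction, quantile normalization, probe summary) and limma, with no version. Quantile normalization hides a shift of all genes together, and very high signals can be compressed. Symbols came from the platform annotation (23521 probe sets with 1 symbol), 23328 of them updated through RefSeq by Entrez identifier. A further probe set that lists Mef2d beside another gene was not used. Genes were tested when their mean reached the 40th percentile of probe set means, 3.80 (log2).

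Knockout was compared with control by limma 3.58.1 (lmFit, eBayes) in R 4.3.3 over 15086 genes, with Benjamini-Hochberg adjustment at 0.05. A difference is given with limma's standard error, and an exact permutation test over 70 assignments was run for each factor. The fit was tested on simulated data. The members, lists and alternatives were chosen with earlier results of these data known. Named genes are the 10 factors, Cited4, and for each related list the 4 genes with the smallest p. Other genes were named after their values were seen. The labels give no array batch, so none was tested. Promoter motifs were searched on both strands.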

Additional observations from a re-analysis of the deposited data

How the results depend on the processing

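Over 11 alternatives for the filter, normalization, probe set, variance model, array weights, replicate block and threshold, and over the fits that leave out arrays, limma called 0 genes and 0 factors. The unmoderated test also called 0, with 1327 genes and 1 factor (Mef2d) at an unadjusted p under 0.05, where limma had 1697 genes and 0 factors. Replicate numbers are shared by the groups, and the deviations of same-numbered arrays correlated at 0.36, 0.01, 0.28 and -0.03. For 2 of the 4 numbers the arrays correlated best with each other. The labels do not say whether a number pairs hearts, and these correlations cannot decide it. With the replicate block 0 factors passed, as without it. Mef2a, Mef2d, Tbx5, Tbx20, Hand2, Gata6 and Srf kept their direction in all 8 fits that leave out 1 array, with Tbx5 from -0.32 to -0.03 and Mef2a from -0.21 to -0.10. Differences near 0 changed sign: with 1 array left out Gata4 ran from -0.0030 to 0.071, Mef2c from -0.034 to 0.054 and Nkx2-5 from -0.11 to 0.035. Without knockout replicates 1 and 4, Gata4 was -0.020, Gata6 0.019, Mef2a -0.039 and Tbx5 0.10, and the median of the 10 factors was -5.31e-04. The cause was not tested. Adjusted p-values of the factors over all settings were at least 0.225. With 4 arrays per group, precision is limited by their number.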

Other observations

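The remaining marker values were as follows, with 0 genes past the adjusted threshold of limma. Of 10 macrophage markers 8 had higher and 2 lower knockout means (median 0.12), with list means from 7.78 to 8.00 in control and 7.87 to 8.18 in knockout hearts. Of 6 epicardial and mesothelial markers 3 passed the filter on low signals, and Msln, Krt19 and Lrrn4 did not. In the 10 endothelial markers 3 were higher and 7 lower (median -0.03). At an unadjusted p under 0.05 there was 1 endothelial marker lower, and 0 macrophage, epicardial or mesothelial markers in either direction. At that p 5.64% of all genes were higher and 5.61% lower. Fibroblast markers had 10 of 12 higher (6 at that p) and 2 lower (0). Ventricular markers had 2 of 13 higher (0) and 11 lower (4). Atrial markers had 6 of 7 tested higher (2) and 1 lower (0). Without knockout replicate 2, 4 atrial markers were higher (2) and 3 lower (1), beside 7.04% and 8.8% of all genes. Their median difference was 0.05 in that fit and 0.39 over all 8 arrays. Smooth muscle or pericyte markers had 5 of 10 higher (3) and 5 lower (1). Without knockout replicates 1 and 4, 10 fibroblast markers were higher (1) and 11 ventricular markers lower (0), beside 2.19% and 1.9% of all genes.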
